A study of Mus musculus with 32 samples.

Results

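Of the 259154 sites of open chromatin in 5 control populations of mouse cells on their way from fibroblast to induced pluripotent stem cell, 41592 (16.0%) were present in all 5. These constitutive sites were chosen by the deposited peak lists themselves. The 5 control lists were pooled over chromosomes 1 to 19 and X, overlapping intervals were merged into sites, and a site belonged to a list if at least 1 bp of it overlapped a peak there. A site is recorded only as present or absent, since the deposited lists give no height. Just outside the threshold lay 35017 sites (13.5%) of exactly 4 lists, of which 17319 were missing only at day 0, 13131 only in GFP+ cells, 3062 only in SSEA1+ cells, 1193 only in SSEA1-Thy1- cells and 312 only in Thy1+ cells. A further 58984 sites were in 3 lists, 78118 in 2 and 45443 in 1. The constitutive sites made up 27.0% of the sites of the day 0 list, 21.4% of the Thy1+ list, 27.5% of the SSEA1-Thy1- list, 30.6% of the SSEA1+ list and 45.5% of the GFP+ list. These shares describe the choice and were not tested.

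ATAC-seq, in which a transposase inserts adapters into accessible DNA, was applied to 32 samples in 15 groups, and each group has 1 deposited peak list. OG2 mouse embryonic fibroblasts at passage 2, which carry a green fluorescent reporter of Pou5f1, were the starting cells. Day 0 cells received CTCF shRNA or control shRNA (2 samples each). Sorted cells came from a doxycycline-inducible lentivirus that carries Oct4, Sox2, Klf4 and c-Myc (OSKM) together, with CTCF shRNA or a luciferase control shRNA: Thy1+ cells of days 3, 6 and 9 (3 samples a group), SSEA1-Thy1- and SSEA1+ cells of days 6 and 9 (2 samples a group each), and GFP+ cells of day 12 (2 samples a group). Unsorted OSKM cells of day 10 had CTCF overexpression with Smarca5 shRNA, CTCF overexpression alone or the overexpression control, and unsorted cells of day 12 had Smarca5 shRNA or control shRNA (2 samples each). Cultures during reprogramming contained vitamin C. The sorted groups of days 3, 6 and 9 mix days in 1 list, the unsorted groups mix cells that reprogram with cells that do not, and a list gives no replicate spread. Merged lists ran from 91323 to 194430 peaks in the controls, from 103454 to 213369 with CTCF shRNA and from 43610 to 72406 at days 10 and 12. Read depth is unknown, and a longer list can hold a site for that reason alone, whose part in the results was not tested. Among defining markers, those of pluripotency followed the sorts and those of fibroblasts hardly changed. In the day 0, Thy1+, SSEA1-Thy1-, SSEA1+ and GFP+ control lists, 6, 6, 6, 6 and 5 of 6 fibroblast markers had a gene-end peak. In the same order 1, 1, 2, 3 and 5 of 6 pluripotency markers and 3, 3, 3, 4 and 4 of 4 epithelial markers did. Of 3 haematopoietic, 3 endothelial and 3 neural markers, 1 to 2, 1 to 2 and 2 to 3 had one.

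Most regulatory elements of a mammalian genome are open in some cell types and closed in others, but a core of elements is open almost everywhere. That core is known to hold promoters of housekeeping genes, which mostly lie in CpG islands, stretches of DNA that escape methylation and keep their CpG dinucleotides, and binding sites of CTCF, the zinc finger protein that insulates domains and stops cohesin loops. Smarca5 is the ATPase of ISWI remodellers, which space nucleosomes and help CTCF to bind.

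The promoter windows below set starts on constitutive sites beside starts on sites of fewer control lists. Sequences are from RefSeq (GRCm38.p6), run 5′ to 3′ on the gene's strand from 250 bases before to 50 bases after an annotated start, and have in capitals every match to the 12 motifs searched. Polr2j encodes a subunit of RNA polymerase II, Rplp0 a protein of the ribosomal stalk, and Ctcf and Smarca5 are the genes targeted in the study. The start of each of these 4 lies on a constitutive site that was present in all 15 lists.
Polr2j, chr5:136116441-136116740, plus strand: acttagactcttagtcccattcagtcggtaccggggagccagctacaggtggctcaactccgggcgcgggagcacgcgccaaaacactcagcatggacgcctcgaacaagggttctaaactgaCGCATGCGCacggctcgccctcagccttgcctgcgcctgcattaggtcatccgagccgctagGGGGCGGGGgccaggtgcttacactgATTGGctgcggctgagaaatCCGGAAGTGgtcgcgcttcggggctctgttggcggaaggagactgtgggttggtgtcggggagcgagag
Rplp0, chr5:115559217-115559516, plus strand: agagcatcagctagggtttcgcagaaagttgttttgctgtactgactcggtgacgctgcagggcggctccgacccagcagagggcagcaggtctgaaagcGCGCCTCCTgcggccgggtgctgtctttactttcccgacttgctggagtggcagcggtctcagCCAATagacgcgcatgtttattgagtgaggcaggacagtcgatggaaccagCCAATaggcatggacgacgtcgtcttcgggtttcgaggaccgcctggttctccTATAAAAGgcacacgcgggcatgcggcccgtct
Ctcf, chr8:105636288-105636587, plus strand: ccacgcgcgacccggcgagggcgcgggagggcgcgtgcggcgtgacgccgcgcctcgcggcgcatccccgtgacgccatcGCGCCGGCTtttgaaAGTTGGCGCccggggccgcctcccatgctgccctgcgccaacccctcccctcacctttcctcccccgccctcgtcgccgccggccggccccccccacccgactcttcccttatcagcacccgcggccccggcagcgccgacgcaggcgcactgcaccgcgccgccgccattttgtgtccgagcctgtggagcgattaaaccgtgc
Smarca5, chr8:80739410-80739709, minus strand: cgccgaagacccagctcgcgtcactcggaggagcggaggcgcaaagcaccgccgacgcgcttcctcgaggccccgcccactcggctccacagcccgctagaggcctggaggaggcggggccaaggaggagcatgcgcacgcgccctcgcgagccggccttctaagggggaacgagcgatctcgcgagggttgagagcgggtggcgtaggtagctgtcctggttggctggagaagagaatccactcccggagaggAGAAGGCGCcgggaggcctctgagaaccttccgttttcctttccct
The windows of Pou5f1 (Oct4) and Nanog, core pluripotency factors, are shown for contrast. Of 2 annotated Pou5f1 starts, that shown lies on a site of 3 control lists and the other on no control site. The Nanog start shown lies on a site of 2.
Pou5f1, chr17:35505782-35506081, plus strand: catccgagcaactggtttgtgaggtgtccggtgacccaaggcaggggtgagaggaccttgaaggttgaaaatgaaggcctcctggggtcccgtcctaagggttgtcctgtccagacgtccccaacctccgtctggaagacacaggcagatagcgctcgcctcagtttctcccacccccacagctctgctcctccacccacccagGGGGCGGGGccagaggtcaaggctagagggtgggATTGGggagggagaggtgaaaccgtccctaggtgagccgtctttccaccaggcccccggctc
Nanog, chr6:122707239-122707538, plus strand: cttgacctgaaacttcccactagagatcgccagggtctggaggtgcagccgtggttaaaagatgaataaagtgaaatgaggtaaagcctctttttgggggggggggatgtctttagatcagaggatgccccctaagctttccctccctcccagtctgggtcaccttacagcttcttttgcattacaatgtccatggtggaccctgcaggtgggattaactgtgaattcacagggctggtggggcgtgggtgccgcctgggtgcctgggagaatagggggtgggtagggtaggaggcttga
The windows of Ctcf, Smarca5, Polr2j and Rplp0 held 47, 32, 25 and 24 CpG dinucleotides in 300 bases, against 11 at Pou5f1 and 4 at Nanog. The window of Fut4, a gene behind the sorts, is not printed. Its start also lies on a constitutive site of all 15 lists, and it held 18 and no match to the motifs. The capitals mark an NRF1, an ETS, an NFY and an SP/KLF motif at Polr2j, 2 CTCF core motifs at Ctcf and 1 at Smarca5, and a CTCF core, a TATA box and 2 NFY motifs at Rplp0. At Pou5f1 they mark an NFY and an SP/KLF motif. No capitals stand in the Nanog window.

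The form of the sites followed that of the deposited intervals, which are all 400 bp wide and share positions across the control lists. Of 41592, 39733 (95.5%) were exactly 400 bp wide, and 41577 held an interval with the same start and end in all 5 lists. Together they covered 16.9 Mb. The starts of consecutive constitutive sites lay a median of 19.5 kb apart, and 31.3% of these distances were 10 kb or less. By chromosome they made up between 13.0% of the control sites on X and 21.3% on chromosome 7, with 21.2% on chromosome 11.

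Constitutive sites lay at gene ends far more often than other sites did, but less often elsewhere in a gene. Within 1 kb of an end of a protein-coding gene lay 13720 of them (33.0%, exact 95% interval 32.5% to 33.4%), against 8.67% of all control sites, 5.96% of the sites of exactly 4 lists and 3.33% to 3.91% of the sites of 1 to 3 lists. The intervals here and below cover counting error over sites only. Among sites on chromosomes with annotated starts, 23.0% of the constitutive sites (9274 of 40361) had a start inside them, against 2.04% of the sites of exactly 4 lists. By place, 31.3% of the constitutive sites lay within 1 kb of a start and 8.85% at another gene end. A further 31.6% (12738) lay elsewhere in a gene and 28.3% (11405) between genes, against 44.2% and 44.2% of all control sites. Only 17274 of the 21631 protein-coding genes have an annotated start here. A site at the start of one of the other genes was thus counted as another gene end. The shares by start and the distances to a start leave such starts out. The median distance to a start was 9.43 kb, against 25.01 kb for sites of exactly 4 lists. Seen from the control lists, constitutive sites were 70.3% to 80.1% of the gene-end sites of each list but 15.9% to 37.6% of its distal sites, that is, those beyond 1 kb of a gene end.

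The constitutive sites near a start were centred just upstream of it. Of 12225 constitutive sites with their centre within 1 kb of a start, the median centre lay 16.5 bp upstream (offset -16.5 bp, quartiles -85.5 and 68.5 bp), and 57.0% lay upstream. Sites of exactly 4 lists were looser, with quartiles of -185 and 336 bp. They favoured the 5′ end over the 3′ end of a gene: of 17274 genes with a strand, 58.8% had a constitutive site within 1 kb of the 5′ end and 9.58% within 1 kb of the 3′ end, and in the 13367 longer than 5 kb the shares were 66.6% and 9.59%. Divergent promoters, where genes on opposite strands start back to back, were covered more often: 693 of 748 start pairs within 1 kb (92.6%) had a constitutive site, and of the genes in such pairs 78.1% had one on the start, against 48.7% of other genes.

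**Figure D1:**
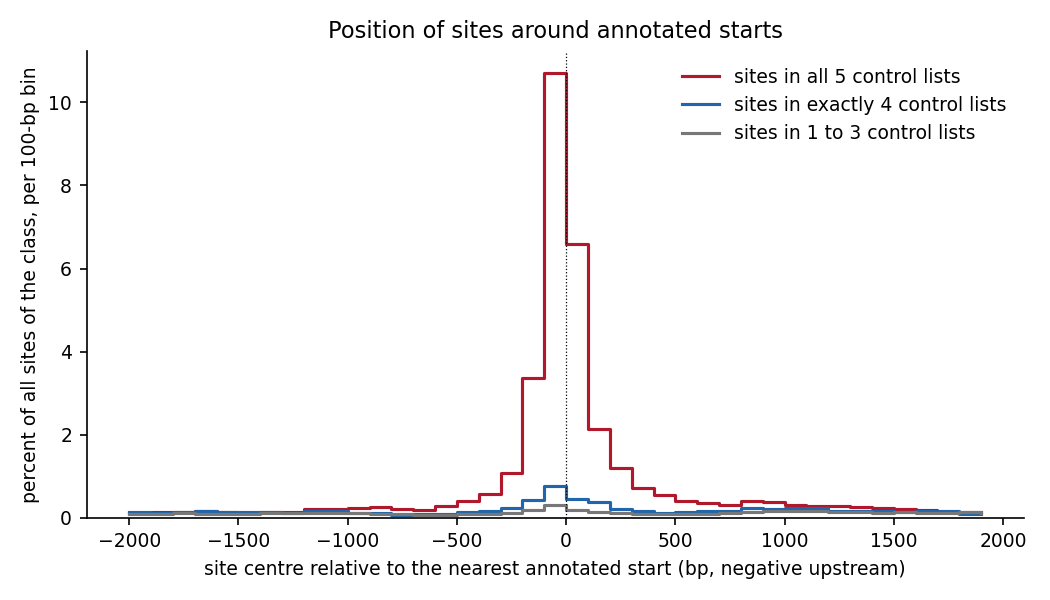
Position of site centres relative to the nearest annotated start (bp, negative upstream) for sites in all 5, exactly 4 and 1 to 3 control lists, as percent of all sites of the class per bin of 100 bp. The line of the constitutive sites peaks just upstream of the start, at 10.7% in the bin ending there, while the other lines stay low throughout.

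The widest constitutive site, 1085 bp at chr3:55782670-55783754, overlaps Nbea and Mab21l1, a gene of eye development nested in it, and was in none of the 5 lists of days 10 and 12. The other 9 of the 10 widest were 874 to 1013 bp, at or near Dok1 (an adaptor of tyrosine kinase signalling), 2410004B18Rik, Mcub (a subunit of the mitochondrial calcium uniporter), Setd5, Tchh, Nrg1 (a ligand of ErbB receptors), Acvr1 with Upp2, Pbp2 and Ecscr. All 10 were present in each of the CTCF shRNA lists. Of 13796 windows of 100 kb with a constitutive site, with a median of 2, the densest held 24 of 31 control sites. It spans chr13:23500001-23600000 and holds 15 histone genes, among them H4c8, H3c8 and H1f3, and all 24 of its sites were present in every CTCF shRNA list. The next densest, with 19, 18, 17 and 17 sites, held Abt1 and butyrophilin genes, Zfp184 and Pom121l2, the ephrin genes Efna3 and Efna4 with Adam15, and Taldo1 with Rplp2, Polr2l and Cd151.

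The promoters under constitutive sites were rich in CpG. Of 32619 promoter windows, 11040 (33.8%) had their start on a constitutive site, 2315 on another control site and 19264 on none. The median GC content was 62.3% in the windows on constitutive sites, 51.3% on other control sites and 48.3% on no site, and the median ratio of observed to expected CpG was 0.787, 0.282 and 0.234. A ratio above 0.6 was found in 77.4% of the constitutive windows, against 13.7% and 15.0%. Read the other way, a constitutive site covered 2.19% of the starts with a ratio under 0.2, 37.2% of those between 0.4 and 0.6 and 77.3% of those between 0.8 and 1.0. Windows of neighbouring starts can overlap, so they are not independent.

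**Figure D2:**
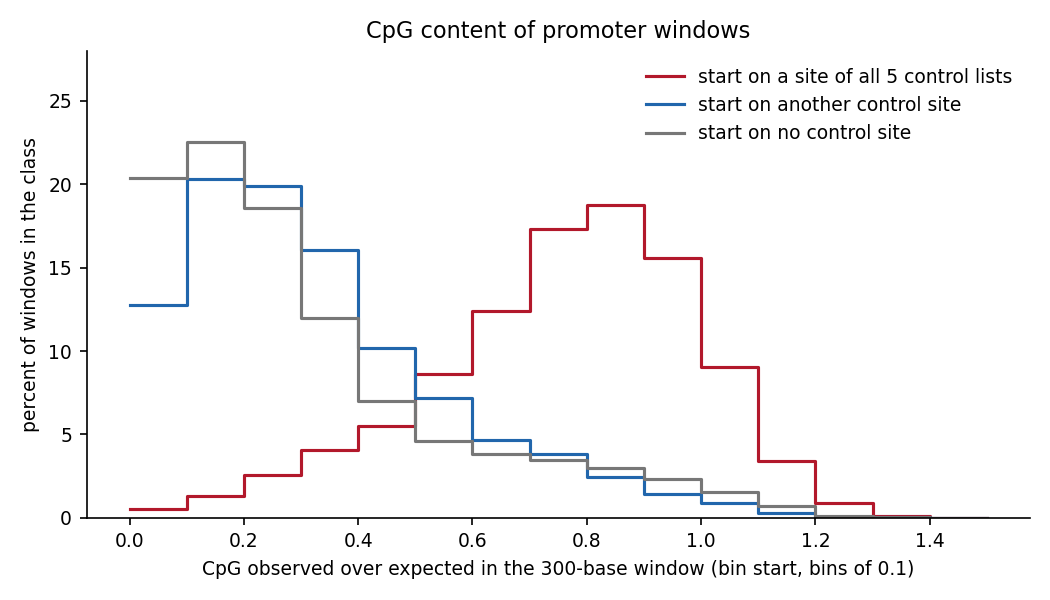
Distribution of the ratio of observed to expected CpG in 300-base promoter windows, as percent of the windows of each class per bin of 0.1, for starts on a site of all 5 control lists, on another control site and on no control site. The constitutive windows centre near their median of 0.787, while both other classes centre near 0.282 and 0.234.

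Over all windows, motifs that hold a CG were more common on constitutive sites, and the AP-1 motif was less common. Motifs were searched on both strands and may overlap each other. The core of the CTCF motif (AGNNGGCGC) was in 14.8% of the windows on constitutive sites, 4.36% on other control sites, 3.34% on no site and 7.28% of all windows. An NRF1 motif (GCGCATGCG), bound by an activator of nuclear genes for mitochondria, was in 4.09%, 0.9503%, 0.498% and 1.75% in the same order. An ETS motif (CCGGAAGTG) was in 4.69%, 1.08%, 0.638% and 2.04%, and a YY1 motif (AAGATGGCG) in 3.19%, 0.432%, 0.498% and 1.40%. SP/KLF (GGGGCGGGG) was in 24.3%, 7.56%, 4.67% and 11.5%, and CREB/ATF (TGACGTCA) in 3.72%, 1.08%, 0.789% and 1.80%. The E-box CACGTG was in 10.8%, 7.69%, 5.06% and 7.198%, and the ZFP143 motif (ACTACAATT) in 0.743%, 0.259%, 0.213% and 0.395%. The NFY motif (CCAAT) was in 39.4%, 35.7%, 36.8% and 37.6%. AP-1 (TGANTCA), bound by Fos and Jun proteins, was in 4.54% of the constitutive windows against 17.2% of those on other control sites, 8.62% on no site and 7.85% of all. The TATA box (TATAAAAG) was in 0.734%, 2.07%, 2.24% and 1.72%, and the Pou factor octamer (ATGCAAAT) in 1.58%, 2.51%, 1.75% and 1.75%. Windows of the classes differ in base composition, so the shares were also taken within windows of 60% to 70% GC. There the CTCF core was in 15.6% of the constitutive windows and 10.9% of those on no site, NRF1 in 4.31% and 1.82%, ETS in 5.22% and 2.32%, and SP/KLF in 27.4% and 17.96%. YY1 was in 3.45% and 1.38%, CREB/ATF in 4.01% and 1.57%, the E-box in 11.6% and 8.61%, and ZFP143 in 0.496% and 0.0628%. AP-1 was in 3.93% and 3.83%. NFY was in 39.9% and 25.9%, a wider gap than over all windows. TATA, at 0.626% and 0.440%, and the octamer, at 1.21% and 0.126%, had the opposite order to that over all windows. The band does not match the CpG ratio, so motifs that hold a CG were not compared at a like CpG ratio. It held 4636 constitutive windows and 1592 on no site, and windows on other control sites were not taken. The shares of ZFP143, TATA and the octamer on no site thus rest on very few windows, and their order was not tested.

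Genes of basic cell machinery nearly all had a constitutive site at an end. Of 21631 protein-coding genes 13290 (61.4%) had one within 1 kb of an end, and over 8 lists of housekeeping genes 320 of 333 (96.1%) did. All 13 subunits of RNA polymerase II, all 44 splicing factors and all 16 replication and cell cycle genes had one. So did 74 of 76 cytosolic ribosomal proteins (not Rps2 and Rpl17), 75 of 78 mitochondrial ribosomal proteins (not Mrpl4, Mrpl18 and Mrpl24), 36 of 37 complex I subunits, 29 of 30 Mediator subunits (not Med10) and 36 of 39 proteasome subunits (not Psma6, Psma8 and Psmb11). Psma8 and Psmb11 are known as the testis and thymus forms of proteasome subunits. Of 20 housekeeping reference genes 17 had one, and those without included Actb and Ywhaz. Actb, the gene of beta-actin, had 2 constitutive sites inside its annotated span (chr5:142905733-142906132 and chr5:142906346-142906745), 1.84 and 1.23 kb from the nearer annotated end, so its exception depends on where the annotation ends the gene. With 2.5 kb in place of 1 kb all 76 cytosolic and all 78 mitochondrial ribosomal proteins had a constitutive site.

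**Figure D3:**
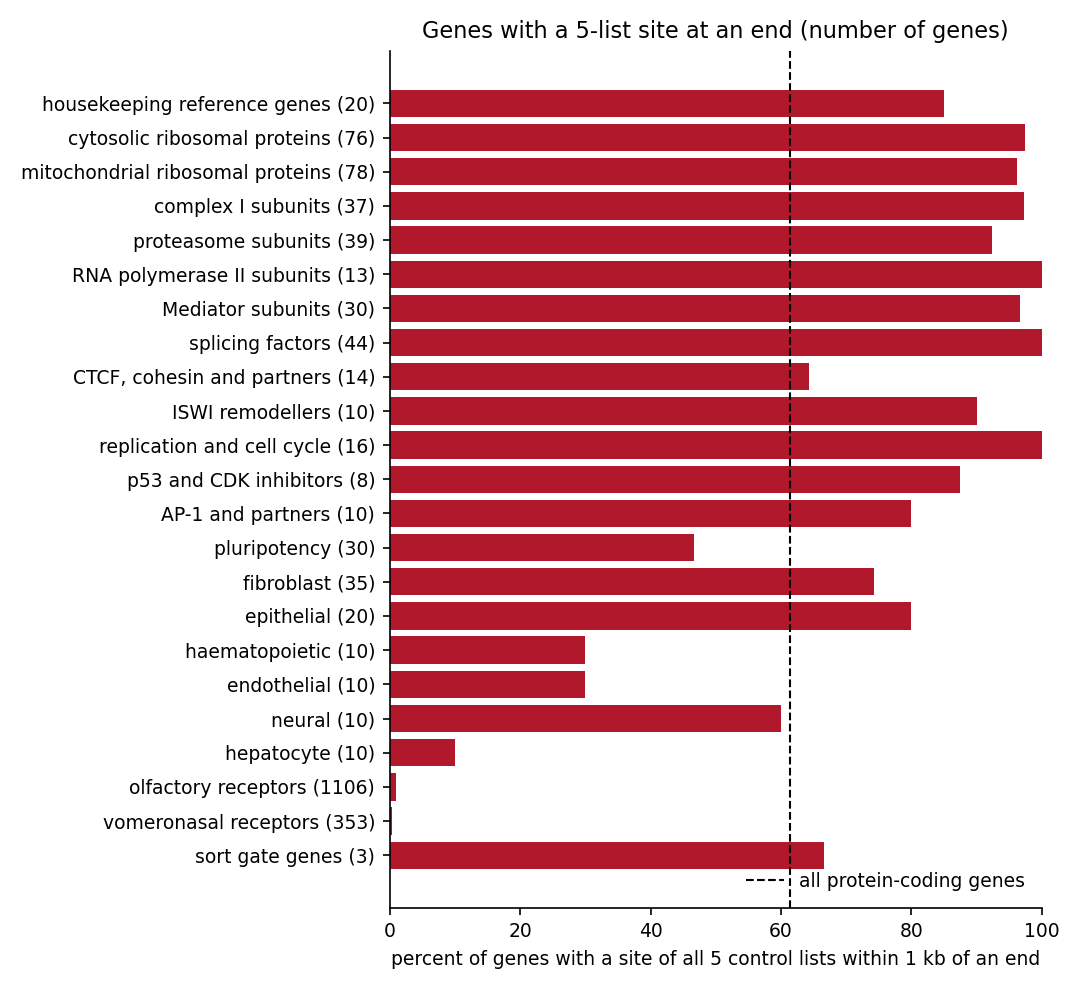
Percent of the genes of each list (number of genes in brackets) with a site of all 5 control lists within 1 kb of an end, with a dashed line at 61.4% for all protein-coding genes. Lists of basic cell machinery reach 85.0% to 100%, marker lists of other tissues reach from 1 of 10 to 6 of 10, and the receptor families lie near 0.

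Lists of regulators and of tissue genes were spread widely around the share of all protein-coding genes, 61.4%. Genes of AP-1 and its partners had a constitutive site in 8 of 10 cases (the Fos and Jun genes and Atf3, not Batf and Runx1). So did 7 of 8 p53 and CDK inhibitor genes (not Cdkn1a, which encodes p21) and 9 of 10 ISWI remodeller genes (not Baz1a). Of CTCF, cohesin and partner genes 9 of 14 had one (not Stag1, Wapl, Nipbl, Rad21 and Ldb1). Epithelial genes had one in 16 of 20, the first by name being Cdh1 (E-cadherin), Cldn3, Cldn4, Cldn6, Cldn7 and Dsp, and fibroblast genes in 26 of 35, with Acta2, Col1a1, Col1a2, Col5a1, Col5a2 and Col6a2 first. Pluripotency genes had one in 14 of 30, with Fbxo15, Fgf4, Klf2, Klf4, Klf5 and Nodal first. Among markers of unrelated tissues the constitutive site was found at 6 of 10 neural genes (among them Map2, Neurod1, Neurog2, Olig2 and Tubb3), 3 of 10 haematopoietic genes (Ikzf1, Spi1 and Tal1), 3 of 10 endothelial genes (Erg, Kdr and Tek) and 1 of 10 hepatocyte genes (Apoa1). Of 1106 olfactory receptor genes 10 (0.904%) had one and of 353 vomeronasal receptor genes 1 (Vmn1r4). In the gene body and 50 kb around it, constitutive sites were 40.1% of the control sites at the housekeeping reference genes, 32.1% at epithelial, 22.1% at pluripotency and 15.9% at fibroblast genes, against 19.2% at all genes. The other tissue lists had 24.3% at haematopoietic, 23.0% at neural, 19.8% at hepatocyte and 18.9% at endothelial genes, and Mediator genes had 26.5%.

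At the genes behind the sorts and the targeted genes, constitutive and changing sites stood side by side. Thy1, the fibroblast surface marker of the sort, had 4 control sites within 10 kb and 1 was constitutive, the site on its annotated start (chr9:44043180-44043579), present in all 15 lists. Fut4, whose enzyme is known to make the SSEA1 sugar epitope, had 3 control sites and a constitutive one on its start (chr9:14751966-14752365), also in all 15. Pou5f1 had 11 control sites within 10 kb and 3 constitutive ones, none on either of its annotated starts. The site on the Pou5f1 start shown above (chr17:35505901-35506300) was in the control lists of day 0, SSEA1-Thy1- and GFP+ cells only. Ctcf had 5 control sites within 10 kb and 3 constitutive ones: that on its start, chr8:105685758-105686157 beyond its other end, and chr8:105661143-105661542 inside the gene. The inside site was absent from the GFP+ list with CTCF shRNA, and the other 2 were present in all 15 lists. Smarca5 had 4 control sites and 3 constitutive ones: that on its start, in all 15 lists, and 2 inside the gene. Of these 2, chr8:80710905-80711304 was likewise absent from the GFP+ list with CTCF shRNA. The other, chr8:80738726-80739125, was held by 8 of the 10 lists that did not choose the sites.

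With CTCF shRNA the constitutive sites were absent less often than the sites of exactly 4 control lists. In D0 cells 1593 of 41592 (3.83%) were absent from the CTCF shRNA list, against 9.37% of the sites of exactly 4 lists that the D0 control held and 4.45% of all sites of that control list. In Thy1+ cells 176 (0.423%) were absent, against 2.03% and 8.20%. In SSEA1-Thy1- cells 779 (1.87%) were absent, against 6.07% and 8.74%, and in SSEA1+ cells 309 (0.743%), against 3.20% and 7.99%. In GFP+ cells 3392 (8.16%) were absent, against 18.2% and 14.3%. At day 0 the constitutive sites were thus close to the share of all sites, and they were far below it in the 3 sorted intermediates. The share of all sites includes the constitutive sites and those of exactly 4 lists. Sites of 1 to 3 lists were not set apart, so the lower share holds against exactly 4 lists only. The difference from the sites of exactly 4 lists averaged -4.78 percentage points (SD 3.34, n = 5 pairs) and was below 0 in 5 of 5 pairs, with an exact two-sided sign-flip permutation p of 0.063, the smallest that 5 pairs allow in this and the following tests (0.0938 after Benjamini-Hochberg adjustment over 3 tests). The control lists of these pairs also chose both classes, and a site of exactly 4 lists had by definition been missed by 1. The test therefore cannot separate the knockdown from the choice of sites. The same constitutive sites enter all 5 pairs here and in the following tests, so the pairs are not independent. The CTCF shRNA list was longer than its control list in every pair, with 183625 against 135735 peaks in SSEA1+ cells as the widest gap.

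Gene-end constitutive sites were absent less often than distal ones. The shares were 1.35% against 5.05% in D0, 0.175% against 0.545% in Thy1+ and 0.794% against 2.40% in SSEA1-Thy1- cells. In SSEA1+ cells they were 0.372% against 0.926%, and in GFP+ cells 2.00% against 11.2%. The difference averaged -3.08 percentage points (SD 3.66, n = 5 pairs), below 0 in 5 of 5 pairs (exact sign-flip permutation p of 0.063, adjusted 0.0938), and was -1.56 without the GFP+ pair. Sites with and without a CTCF core motif in the promoter window were set side by side. Of 1419 constitutive sites on a start with the motif, 8, 0, 3, 6 and 4 were absent in D0, Thy1+, SSEA1-Thy1-, SSEA1+ and GFP+ cells (0.564%, 0%, 0.211%, 0.423% and 0.282%). A count of 0 of 1419 allows a share of up to 0.211% by 3 counts of the total, and its exact 95% interval ends at 0.260%. Of 7855 on a start without the motif the shares were 0.968%, 0.0891%, 0.267%, 0.216% and 0.700%. The difference averaged -0.15 percentage points (SD 0.263, n = 5 pairs), below 0 in 4 of 5 pairs (exact sign-flip permutation p of 0.3125, adjusted 0.3125), and was -0.0892 without the D0 pair and -0.0856 without the GFP+ pair. The motif is short and the window covers promoters only, so CTCF sites away from starts were not analysed here.

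**Figure D4:**
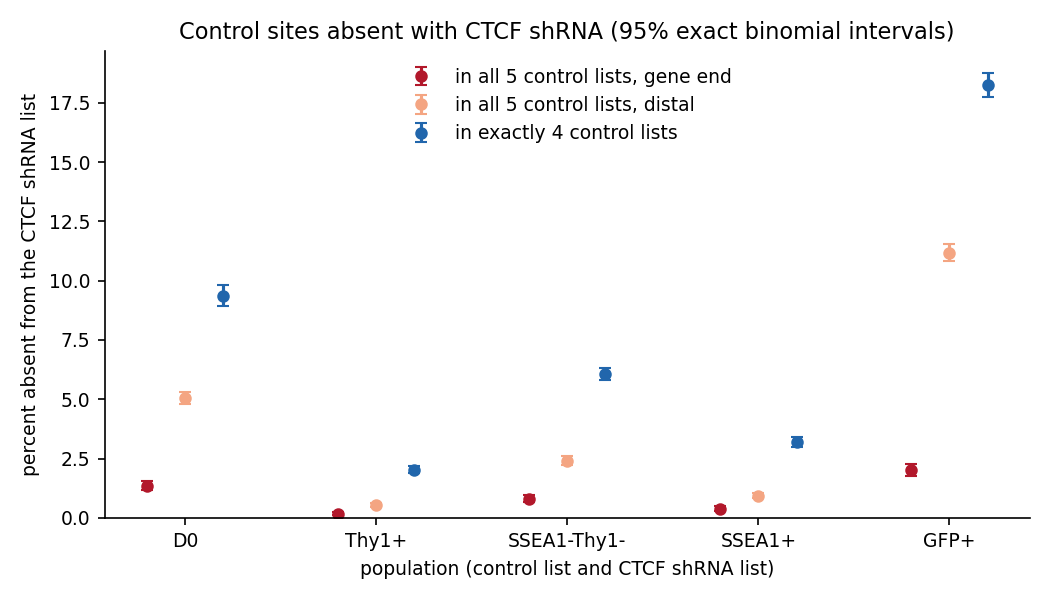
Percent of control sites absent from the CTCF shRNA list in each population, for gene-end and distal sites of all 5 control lists and for sites of exactly 4 control lists, with exact 95% binomial intervals. In every population the gene-end sites lie lowest and the sites of exactly 4 lists highest, up to 18.2% in GFP+ cells.

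All 5 CTCF shRNA lists held 36155 of the constitutive sites (86.9%), and 4743, 595, 82, 15 and 2 were absent from 1, 2, 3, 4 and 5 of them. Absent in 2 or more populations whose control held them were 694 constitutive sites (1.67%), against 3.68% of the sites of exactly 4 lists, which could be absent from at most 4, and 2.19% of all control sites. Among all control sites, the 45443 of 1 list could not be counted so. The 78118 of 2 lists could only if absent from both, so the 2.19% is not a like comparison. Gene-end sites were 36.4% of those held in all 5 and 9.91% of those absent from 1. None of the 17 absent from 4 or 5 lists lay within 1 kb of a gene end, 7 lay inside a gene, and 10 were in none of the lists of days 10 and 12. Those absent from all 5 were chr4:143090592-143090991, 16.4 kb from the nearest gene end, that of Prdm2 (a PR domain zinc finger protein), and chr7:80399944-80400343 inside Furin, which encodes a proprotein convertase. The first was in no list of day 10 or 12 and the second was in all 3 lists of day 10. The next 8, absent from 4 lists, lay inside D5Ertd579e and Slc2a9 (a urate transporter) or nearest to 1700001O22Rik, Aar2, Man1a2, Gclm, Slc44a1 and Cisd1. Gclm encodes the regulatory subunit of the enzyme that begins glutathione synthesis.

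Constitutive sites were found at days 10 and 12 more often than other control sites. The D10 list with CTCF overexpression and Smarca5 shRNA held 73.7% of them, that with CTCF overexpression 79.4% and the D10 control 81.2%, against 23.8%, 24.1% and 26.0% of all control sites. The D12 list with Smarca5 shRNA held 58.5% and the D12 control 58.3%, against 16.5% and 16.2%. Of the peaks of these 5 lists, 46.1% to 55.5% lay on constitutive sites. Gene-end sites were held more often than distal ones in each list. With CTCF overexpression and Smarca5 shRNA 91.3% of the gene-end and 65.1% of the distal sites were held, with CTCF overexpression alone 93.6% and 72.4%, and in the D10 control 93.9% and 74.996%. At day 12 the shares were 85.3% and 45.4% with Smarca5 shRNA and 85.4% and 45.0% in the control. These lists use other interval positions. Every constitutive site of 400 bp held in a CTCF shRNA list was held by the same interval, whereas in the lists of days 10 and 12 this was so for 1.10% to 1.24%, so the shares of constitutive and other sites are compared within a list.

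**Figure D5:**
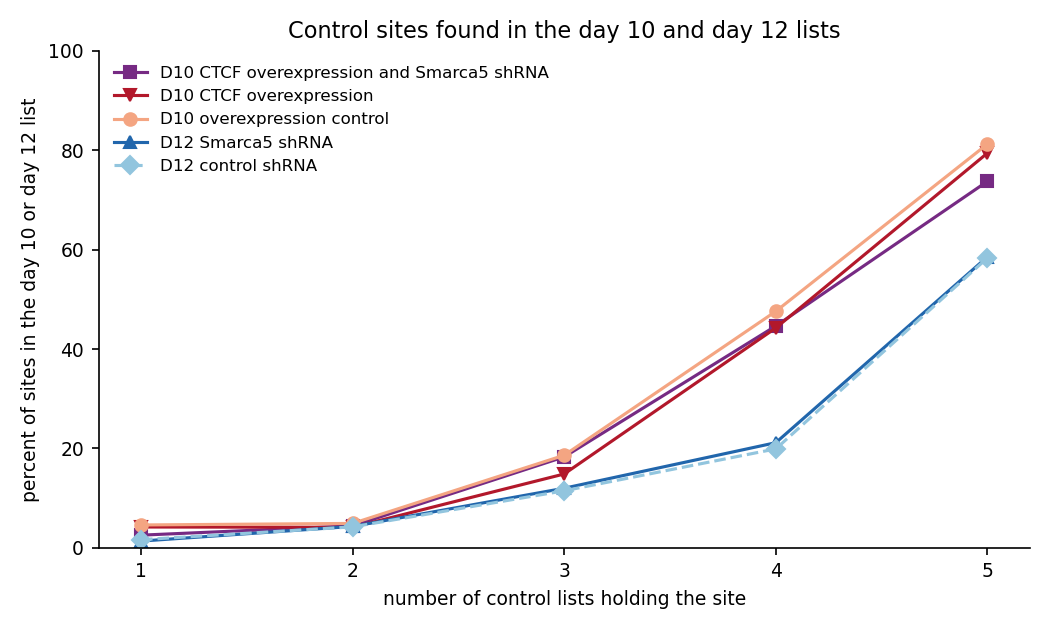
Percent of control sites found in each of the 3 day 10 lists and 2 day 12 lists, against the number of control lists that hold the site. In each list the share is highest for sites of all 5 control lists, 58.3% to 81.2%.

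A core of 21368 constitutive sites (51.4%) was present in all 15 lists. Of these 52.5% lay at a gene end, against 12.3% of the 20224 others, and their median distance to a start was 0.827 kb, against 17.4 kb. Where such a core site covered a start, 80.7% of the promoter windows had a CpG ratio above 0.6, against 39.3% of the windows on other constitutive sites, and 4.196% against 8.46% held the AP-1 motif. The median GC content of these windows was 62.7% and 57.3%, and the AP-1 shares were not taken at like GC content. At the other extreme 5753 constitutive sites (13.8%) were in none of the 5 lists of days 10 and 12, and 9.47% of those lay at a gene end.

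CTCF overexpression and Smarca5 shRNA were each set against the nearest control. With CTCF overexpression 1751 of the 33784 constitutive sites of the D10 control were absent (5.18%), against 25.3% of its other control sites and 16.9% of all its peaks, and 998 were present only with overexpression. With Smarca5 shRNA added, 3468 of the 33031 constitutive sites held with CTCF overexpression alone were absent (10.5%), against 22.2% of the other control sites and 18.3% of all peaks, and 1104 appeared. Of the gene-end sites 3.21% were absent and of the distal ones 15.1%, and for CTCF overexpression alone the shares were 1.07% and 7.72%. At day 12, with Smarca5 shRNA and no CTCF overexpression, 491 of 24259 (2.02%) were absent, against 7.78% of the other control sites and 5.40% of all peaks, and 583 appeared. Of these 0.777% of the gene-end sites and 3.19% of the distal ones were absent. In all 3 comparisons the constitutive share lay below that of the other control sites. These classes were set by the number of control lists that held a site, and the difference between them was not tested. The D10 comparisons share the list with CTCF overexpression. No list has a replicate, so no difference between conditions was tested.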

How the data were processed

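ATAC-seq peaks were analysed as the authors deposited them, 1 BED list for each of the 15 groups, with positions on mm10 (GRCm38). The submitters' processing notes name Bowtie2, SAMtools, Picard, MACS2, cutadapt, Trim Galore and FastQC, without their roles. No source used here gives their versions, the peak cutoff, a transposase shift or the way in which samples were pooled into 1 list. The score column of the deposited lists is 0 throughout, so peaks could not be ranked or filtered by the authors' score. With no read counts, depth is unknown, and a missing peak may be a peak below the threshold.

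Intervals were merged and overlapped with Python 3.11.15, numpy 2.4.6, pandas 2.3.3 and scipy 1.17.1, and the interval code was tested on simulated data. Peaks on chromosome Y were left out. Gene ends are those of 21631 protein-coding genes and starts those of 32619 RefSeq promoter windows (GRCm38.p6). The 17274 genes with such a window have a strand, and values based on starts leave out the other genes and chromosomes with no window. Shares carry exact Clopper-Pearson 95% intervals. Over the 5 CTCF shRNA pairs 3 differences were tested by exact permutation of their signs (two-sided) with Benjamini-Hochberg adjustment. Each group has 1 list, so there is no test within a pair. The sites, gene lists, motifs and tests were chosen with earlier results of these data known.

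Genes named are those of the lists that lack a constitutive site (basic machinery) or have one (tissue lists), all where 6 or fewer and otherwise the first 6 by symbol, the genes at the 10 widest sites, the first 10 of the sites absent from the most CTCF shRNA lists, the genes of the sorts and the targeted genes, and the 5 densest windows of 100 kb. Exceptions of further lists, the markers of the sorts and the genes whose promoters are printed were named after their values were seen. Alternatives changed the overlap, the merging, the gene-end distance and the lists or pairs included. A few genes that this rule names are not reported here.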

Additional observations from a re-analysis of the deposited data

Results flagged for a closer look

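The comparison by CTCF core motif differed in direction between populations. In SSEA1+ cells constitutive sites on a start with the motif were absent with CTCF shRNA 0.21 percentage points more often than those without, whereas the difference was below 0 in the other 4 populations. It rests on 6 of 1419 and 17 of 7855 sites, and the difference between populations was not tested.

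Chromosome Y was outside the rule that defined the sites. Its 22 control sites include 9 that were present in all 5 control lists.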

How the results depend on the processing

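Of 59 alternatives over 34 results, none reversed a direction and 9 moved a share or count, as given here. Requiring 200 bp of cover moved the share of constitutive sites held to 69.97% in the D10 list with CTCF overexpression and Smarca5 shRNA, 75.7% with CTCF overexpression, 77.3% in the D10 control, 54.6% in the D12 list with Smarca5 shRNA and 54.4% in the D12 control. The share at gene ends was 40.5% within 2.5 kb and 26.0% within 250 bp, and with 2.5 kb the endothelial genes with a constitutive site numbered 6 and the vomeronasal receptors 4. Leaving out 1 control list at a time gave 41904 (without Thy1+) to 58911 (without D0) sites common to the other 4. Leaving out 1 pair at a time gave -5.57 to -3.45 percentage points for constitutive sites against those of exactly 4 lists, -3.76 to -1.56 for gene-end against distal sites and -0.242 to -0.0856 for sites with the CTCF core motif against those without. The value nearest 0 was without GFP+ in each, and -0.0892 without D0 for the motif. No paired analysis was possible because each group has 1 deposited list, so samples with the same number could not be paired. The 5 pairs tested are pairs of lists. Depth is unknown, with 5 pairs no p can fall below 0.063, and a list of 400-bp intervals shows presence only, so sites that stayed open but changed in height were not analysed here.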
